A study of Mus musculus with 32 samples.

Results

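The effect of the miR-29a-3p mimic on gene expression in lipopolysaccharide-treated BV-2 cells was taken from 8 of the 32 RNA sequencing libraries of the study: 4 from cells transfected with the mimic and 4 from cells transfected with a scramble control, all exposed to LPS. Which libraries belong to each group was read from the labels, and every gene of the deposited table was considered. BV-2 is an immortalised mouse microglial line, so all libraries come from 1 line, of the genotype that the labels give as WT (the labels list the cell type as glioblastoma). An age in mice is also entered for some of these cultures, 2 months for 1 and 6 months for 3 scramble libraries and 6 months for 2 miR-29a libraries, and such an entry cannot describe a cultured line. A mimic is a short synthetic RNA that acts as the mature microRNA, so its level in the cell is set by transfection and not by the cell. LPS, a component of the bacterial outer membrane that activates macrophages through Toll-like receptor 4, was given at 10 ng/ml for 24 h. The 24 other libraries were scramble, miR-29a, miR-7a and miR-146a cells with vehicle, and miR-7a and miR-146a cells with LPS. The labels place the LPS treatment before the transfection and the paper's methods place it after, so the state of the cells when the mimic entered is uncertain. The 4 libraries of a group carry replicate numbers 1 to 4, which the paper's legends describe as independent experiments.

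MicroRNAs guide Argonaute proteins to messenger RNAs, mostly through pairing of bases 2 to 8 of the microRNA (the seed) with the 3′ untranslated region, and paired messengers are destabilised or translated less. The miR-29 family has few members with 1 common seed, and it is known for repressing collagens and other matrix genes and the DNA methyltransferases of the DNMT3 type, with Tet dioxygenases and Mcl1 among its other reported targets. Microglia are the resident macrophages of the brain, which take up debris by phagocytosis and degrade it in lysosomes. LPS also makes macrophages produce type I interferon, which induces a set of antiviral genes.

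The mature sequences are shown because the seed, in capitals, decides which messengers a mimic can pair with. They were taken from RefSeq (GRCm38.p6), where mature miR-29a-3p lies at chr6:31062673-31062694 on the minus strand.
miR-29a-3p: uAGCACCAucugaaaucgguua
miR-29b-3p: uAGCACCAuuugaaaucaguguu
miR-29c-3p: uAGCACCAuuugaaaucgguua
miR-7a-5p: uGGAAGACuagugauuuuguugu
miR-146a-5p: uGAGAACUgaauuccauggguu
The 3 members of the miR-29 family have the same seed, and it differs from the seeds of the other 2 mimics.

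A seed site was defined as the letters TGGTGCT in the 3′ untranslated region of the transcript (GENCODE M21, GRCm38), and an 8-base site as TGGTGCTA. Of 21001 genes with an annotated 3′ untranslated region, 2740 (13%) held at least 1 seed site. Sites of 4 genes whose levels are described further on are printed with their flanks, the seed site in capitals.
Dnmt3a, chr12:3911387-3911415, plus strand: ttgcccaggggaggtagcTGGTGCTagca
Dnmt3a, chr12:3911456-3911484, plus strand: accagcggggtcccaagcTGGTGCTaatt
Tet3, chr6:83363774-83363802, minus strand: accaaggccgcttttagtTGGTGCTaaac
Ctsk, chr3:95509044-95509072, plus strand: tttcatttctcctctcgtTGGTGCTtcca
Col7a1, chr9:108984577-108984605, plus strand: gtcctgctgtgctccattTGGTGCTagag
Both Dnmt3a sites shown and those of Tet3 and Col7a1 are 8-base sites, and the Ctsk site is not.

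The libraries held 2726683 to 20555235 estimated counts with scramble and 5893174 to 16072695 with miR-29a, so the shallowest and the deepest were both controls. Mitochondrially encoded genes took 1.62% to 2.61% of the counts with scramble and 1.73% to 4.02% with miR-29a. Between libraries of the same replicate number this share was always higher with miR-29a. It was 2.61% and 3.57% in replicate 1, 1.62% and 1.73% in 2, 2.60% and 4.02% in 3, and 2.34% and 3.66% in 4. The deposited table had lost its decimal marks. They were restored before any value was used, and levels are given as CPM, the counts of a gene scaled to a common library total after normalisation for library composition. Of 20 microglia and macrophage markers 17 passed the filter on low counts, and the list summed to 6470 to 7316 CPM with scramble and to 4965 to 6277 CPM with miR-29a. Of the markers that set brain microglia apart from other macrophages, Siglech was at 0 in all 8 libraries, Sall1 stayed under 1 CPM, Cx3cr1 reached 1.58 CPM, Tmem119 7.17 CPM and P2ry12 7.41 CPM. All 12 markers of astrocytes and glioma, all 6 of neurons, all 7 of fibroblasts and all 6 of lymphocytes were under 1 CPM in every one of the 8 libraries. The cells therefore had general macrophage markers and lacked glial and neuronal ones, against the cell type entry of the labels. In bulk samples such as these, fewer cells of a kind and less RNA per cell cannot be told apart.

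The comparison asked which messengers changed when miR-29a was overexpressed in LPS-activated cells. Of 13347 genes tested, 684 passed an adjusted p under 0.05 with a log2 fold change past 0.3 (5.12%, limma-voom with Benjamini-Hochberg adjustment), of which 308 were higher (2.31%) and 376 lower (2.82%) with the mimic. Of these, 108 rose and 148 fell by more than 2-fold. The groups did not overlap for 643 of the 684, against 1749 of all genes tested (13.1%), and 676 moved the same way in all 4 same-numbered pairs. With the replicate number as a block the count was 1411 (10.6%, with 625 or 4.68% higher and 786 or 5.89% lower), 638 of the 684 among them, and without replicate 4 of the scramble group it was 204. The median over all genes tested was 0.01 on the log2 scale, which is the background for the medians of gene groups given later.

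**Figure D1:**
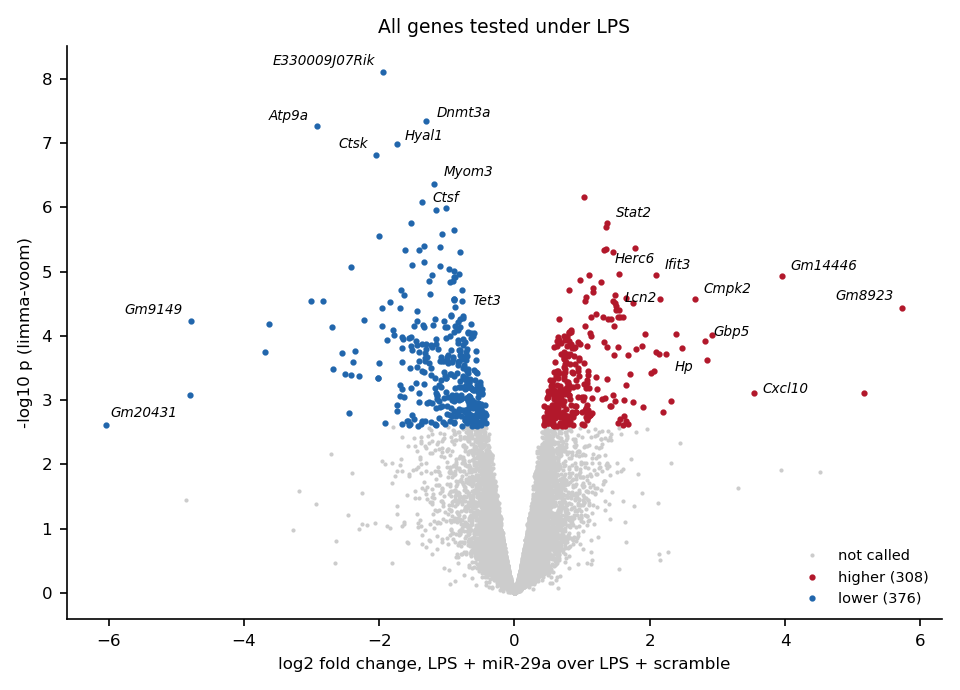
Each point is 1 of the 13347 genes tested, with its log2 fold change (miR-29a over scramble under LPS) on the x axis and the unadjusted -log10 p of limma-voom on the y axis. The 308 genes called higher are red, the 376 called lower are blue and the others grey, and the names are the genes with the largest or most precise changes, with E330009J07Rik and Dnmt3a at the top of the lower side.

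The DNA methylation genes were led by Dnmt3a, the enzyme that sets new methyl groups on cytosine. Its level was 295, 288, 265 and 268 CPM in the scramble libraries and 110, 119, 103 and 119 CPM with miR-29a. All 4 treated values lay far below all 4 controls. It fell to a fitted 40.4% of the control (279 ± 14.6 to 113 ± 7.90 CPM, SD, n = 4; log2 fold change -1.31, SE 0.11, adjusted p = 0.000244), which ranked it second of all genes by p-value, and its 3′ untranslated region holds 5 seed sites, 2 of them 8-base sites. An antisense gene, Dnmt3aos, overlaps its exons on the opposite strand, and reads of the pair cannot be told apart if the counting did not use strand. Tet3, a dioxygenase that oxidises methylcytosine, has 8 sites. It measured 88.9, 69.7, 72.1 and 68.7 CPM with scramble against 40.8, 43.2, 42.8 and 44.4 CPM with the mimic. The groups were apart, and the treated values lay within 4 CPM of each other (log2 fold change -0.77, SE 0.12, adjusted p = 0.00606).

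Among the other members, Tet2 (5 sites) measured 283 ± 37.7 CPM with scramble and 204 ± 34.4 CPM with miR-29a, and its groups overlapped (log2 fold change -0.47, SE 0.15, adjusted p = 0.0879). Tdg, the glycosylase that removes oxidised methylcytosine, holds 3 sites. It measured 46.8 ± 4.39 and 33.4 ± 5.12 CPM, without overlap, and missed the threshold (-0.49, SE 0.14, adjusted p = 0.0625). Both were called with the replicate block (adjusted p = 0.0108 for Tet2 and 0.0196 for Tdg). Dnmt3b, the second de novo methyltransferase, was at 13.7 ± 0.834 and 9.62 ± 1.43 CPM and was called in neither fit (-0.46, SE 0.15, adjusted p = 0.108, and 0.173 with the block). Tet1 was too low to test, with at most 3 counts in a library. Of the 15 genes of the DNA methylation list that were tested, 2 were lower and 0 higher, where 2.82% of all genes were lower. The list's median was -0.22, and 4 were lower with the block.

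Proteases and matrix genes with a site came next. Ctsk encodes cathepsin K, a lysosomal cysteine protease that cleaves collagen, and it is also in the list of reported miR-29 targets. It measured 38.2, 38.9, 27.2 and 39.9 CPM with scramble and 10.6, 7.93, 7.51 and 9.69 CPM with miR-29a. The lowest control was still more than 2-fold above the highest treated library, and the fitted fall was 4.13-fold (log2 fold change -2.05, SE 0.19, adjusted p = 0.000404). Ctsf, cathepsin F, fell from 95.6, 98.1, 82.0 and 72.8 CPM to 38.1, 37.1, 27.8 and 31.8 CPM (-1.37, SE 0.15, adjusted p = 0.00139). Adam19, a membrane metalloprotease with 2 sites, was near the detection limit with 1.65 ± 0.717 CPM in the controls and 0.227 ± 0.0880 CPM with the mimic (-2.41, SE 0.49, adjusted p = 0.0190).

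Of the 34 matrix genes on the list, 22 were too low to test, among them the fibrillar collagens Col1a1, Col1a2 and Col3a1. Of the 12 tested, 7 hold a site. The 4 that were called were all lower, and all 4 hold a site, while the other 3 genes with a site were not called: Col4a1 (log2 fold change 1.20, adjusted p = 0.174), Col6a3 (1.20, adjusted p = 0.0726) and Col4a5 (-0.13, adjusted p = 0.715). Col7a1, the collagen of anchoring fibrils, measured 7, 7.21, 8.44 and 7.51 CPM with scramble and 2.36, 2.39, 2.65 and 3.43 CPM with the mimic (log2 fold change -1.51, SE 0.20, adjusted p = 0.00389). Lamc1, the gamma chain shared by many laminins, fell from 266 ± 24.9 to 156 ± 16.9 CPM (-0.76, SE 0.12, adjusted p = 0.00814). Plod1, a lysyl hydroxylase that modifies collagen, fell from 219 ± 14.8 to 119 ± 21.1 CPM (-0.90, SE 0.14, adjusted p = 0.00606). Col15a1, a basement membrane collagen, was at 3.73 ± 0.150 and 1.91 ± 0.346 CPM (-0.93, SE 0.23, adjusted p = 0.0414). Its call was lost with the block (adjusted p = 0.1) and when any 1 library was left out (at most adjusted p = 0.0985). In the list 5 genes were lower with the block and 0 higher. The median of the 12 tested matrix genes was -0.35, with 8 below 0. Of all genes tested, 2.82% were called lower and 48.5% lay below 0.

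E330009J07Rik, an uncharacterised coding gene with 2 sites, had the smallest p-value of all genes. Its level was 165, 217, 157 and 181 CPM with scramble and 46.5, 52.7, 45.8 and 40.7 CPM with miR-29a, a fitted difference of 3.84-fold (log2 fold change -1.94, SE 0.14, adjusted p = 0.000103). Erp29, a chaperone of the endoplasmic reticulum, fell from 332 ± 32.1 to 155 ± 25.4 CPM (a fitted 2.15-fold, adjusted p = 0.00267). Mturn, Trim63 (a muscle ubiquitin ligase) and Tsc22d3 (the glucocorticoid-induced leucine zipper) completed the 10 largest falls among genes with a site, with log2 fold changes of -1.44, -1.17 and -1.23 and adjusted p = 0.0115, 0.00814 and 0.0467. Erp29 shares exon sequence with Naa25 and Tmem116 on the opposite strand, and whether the counting used strand was not given in the sources used here.

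**Figure D2:**
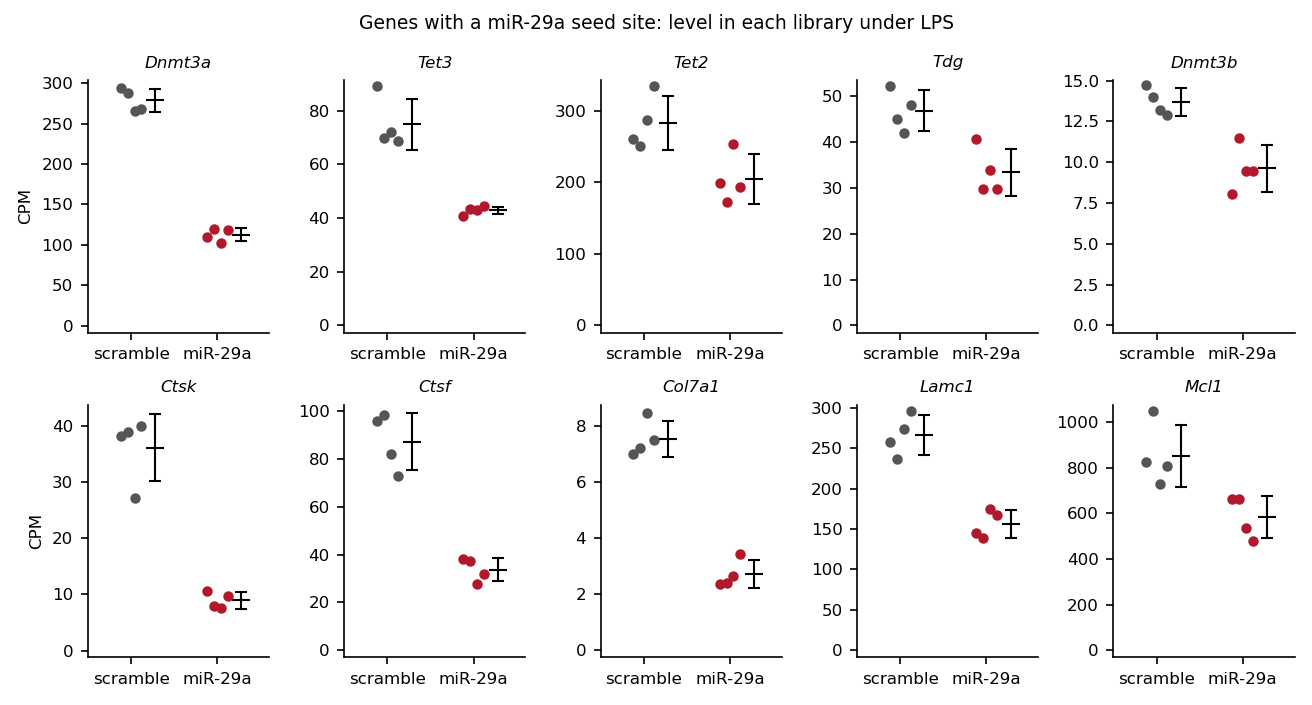
CPM on the y axis in each of the 4 scramble (grey) and 4 miR-29a (red) libraries under LPS for 10 genes with a seed site, 1 panel each with its own scale. Points are libraries and the bar beside them is the mean ± SD; the groups overlap for Tet2 and for no other gene shown, while Tet2, Tdg, Dnmt3b and Mcl1 were not called.

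Of 35 tested genes on a list of reported miR-29 targets, 5 were lower and 0 higher, where 2.82% and 2.31% of all genes were. The 5 were Ctsk, Dnmt3a, Tet3, Lamc1 and Vegfa, the last named after its value was seen (log2 fold change -0.68). The list's median was -0.25, and with the block 11 were lower and 0 higher. Other well-known members did not pass. Mcl1, an anti-apoptotic BCL2 protein, measured 851 ± 137 CPM with scramble and 584 ± 91.9 CPM with the mimic (-0.54, SE 0.15, adjusted p = 0.0639), and with the block it was called (adjusted p = 0.00267). Cdc42, a small GTPase that organises the cytoskeleton, was at 342 ± 38.6 and 381 ± 64.4 CPM (0.14, SE 0.15, adjusted p = 0.613). Pik3r1, a regulatory subunit of PI3-kinase, was at 41.8 ± 5.32 and 45.0 ± 5.34 CPM (0.14, SE 0.14, adjusted p = 0.616), and Ifnar1, the type I interferon receptor chain, was at 102 ± 8.93 and 96.6 ± 9.15 CPM (-0.08, SE 0.12, adjusted p = 0.756).

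In each of 3 further lists 1 gene was called, a share near the 5.12% over all genes. In the BCL2 family of 15 it was the pro-apoptotic Bak1, which fell from 114 ± 4.97 to 72.4 ± 13.4 CPM (log2 fold change -0.67, SE 0.14, adjusted p = 0.0219). No member was called without miR-29a replicate 1 or any 1 of the scramble libraries, 2 were lower without miR-29a replicate 2, and with the block 4 were lower and 1 higher. Of 27 genes of PI3-kinase and insulin-like growth factor signalling, only Pik3r3 was called, and it rose from 2.91 ± 1.12 to 7.02 ± 1.02 CPM (1.49, SE 0.23, adjusted p = 0.00616) although it holds a seed site. With the block 1 was higher and 4 lower in that list. Of 19 genes of the microRNA processing and silencing machinery, only Ago2, the slicing Argonaute, was called. It measured 1083, 1144, 1394 and 1604 CPM with scramble and 585, 566, 788 and 811 CPM with miR-29a, without overlap (-0.91, SE 0.17, adjusted p = 0.0139). It was not called without scramble replicate 4, and 2 genes of the list were lower with the block. Its 3′ untranslated region holds no TGGTGCT.

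Over all genes, those with a site lay lower than those without. The median log2 fold change was -0.04 for 1716 tested genes with any site and 0.02 for 9415 genes with none. It was -0.03 with 1 site, -0.05 with 2 sites and -0.13 with 3 or more (52 genes). The median length of the 3′ untranslated region also rose, from 981 bases with no site to 2275.5 with 1, 3498.5 with 2 and 5029 with 3 or more. The part of this length in the medians of the fold changes was not tested. The medians of the 4 same-numbered pairs were -0.06, -0.05, 0.01 and -0.07 for genes with a site and 0.02, 0.02, 0.02 and 0.03 for genes with none. Genes with a site were the lower class in each pair, although in pair 3 their median was above 0. Of genes with a site, 72 were called lower (4.20%) and 35 higher (2.04%), against 207 lower (2.20%) and 257 higher (2.73%) of genes with none. Among the 347 genes with an 8-base site, 24 were lower (6.92%) and 12 higher (3.46%), so both shares were above those of genes with none. Most called falls were of genes without a site: Atp9a, Hyal1, Itgax and Marco hold none in this annotation.

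**Figure D3:**
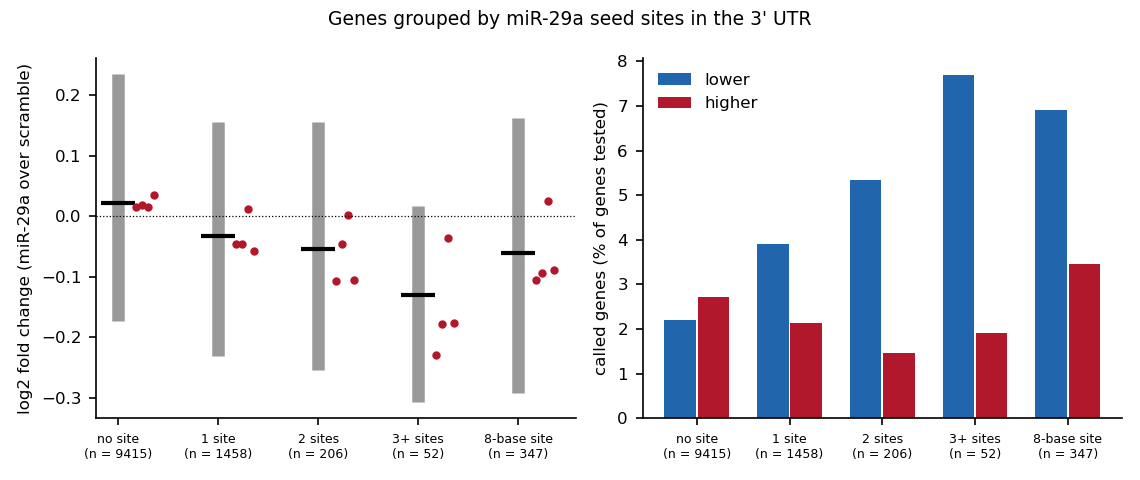
Left, log2 fold change (miR-29a over scramble under LPS) on the y axis by class of seed site on the x axis: black lines are medians over genes, grey bars the range between the quartiles of the genes and red points the medians of the 4 same-numbered pairs, falling from 0.02 without a site to -0.13 with 3 or more. Right, the share of genes of each class called lower (blue) and higher (red), in percent of genes tested; the 8-base class also belongs to 1 of the site number classes.

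The largest falls of all included genes without a site. Atp9a, a phospholipid-transporting ATPase of endosomes, was at 12.6, 21.6, 24.7 and 21.7 CPM with scramble and 2.36, 3.21, 2.43 and 2.94 CPM with miR-29a. The fitted fall was 7.6-fold (log2 fold change -2.93, SE 0.24, adjusted p = 0.000244). Klhl3, an adaptor of a cullin ubiquitin ligase, went from 1.26 ± 0.321 to 0.109 ± 0.149 CPM, and Htr2b, a serotonin receptor expressed by microglia, from 1.34 ± 0.328 to 0.227 ± 0.267 CPM. Both were low in every library (adjusted p = 0.00889 and 0.0174). The other 7 of the 10 largest falls were 6 processed pseudogenes and Gm20431. The largest, Gm20431, is a readthrough gene that shares exons with Tmem189 and Ube2v1. It was at 0 in miR-29a libraries 1 and 3 and at 38.4 and 37.7 CPM in the other 2, and its call was lost with the block (adjusted p = 0.269).

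Genes of the interferon response were among the rises. Of all genes tested, 2.31% were higher and 2.82% lower, and 48.5% of the fold changes were below 0. Of 55 tested interferon-stimulated genes, 21 were higher and 0 lower, the list's median was 0.65, and 49 of the 55 fold changes were above 0. Without replicate 4 of the scramble group 9 were higher, and with the block 35 were higher and 1 lower. Of 15 tested guanylate-binding proteins and immunity-related GTPases, 9 were higher and 0 lower with a median of 1.08, and 2 were higher without that library, 4 without miR-29a replicate 3, 5 without scramble replicate 3 and 13 with the block. These GTPases are induced by interferon and attack the vacuoles of intracellular microbes. The members of both families are similar in sequence, so estimated counts split shared reads between them.

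Cmpk2, a mitochondrial nucleotide kinase that interferon induces, was at 13.7, 8.80, 12.3 and 5.82 CPM with scramble and 57.9, 55.3, 104 and 26.9 CPM with miR-29a. Every treated library was above every control, and replicate 3 was the highest and replicate 4 the lowest of the treated. The fitted rise was 6.39-fold (log2 fold change 2.68, SE 0.40, adjusted p = 0.00606). Ifit3, a member of the family that binds foreign RNA, rose from 18, 17.5, 23.4 and 10.1 CPM to 55.7, 61.6, 110 and 54.3 CPM (2.1, SE 0.29, adjusted p = 0.00411). Rsad2, the antiviral enzyme viperin, rose from 139, 116, 182 and 85.2 CPM to 370, 365, 607 and 299 CPM (1.65, SE 0.25, adjusted p = 0.00606). In all 3 genes replicate 3 was the highest treated library and replicate 4 the lowest library of each group.

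The transcription factors of the pathway did not all move. Stat2 rose from 40.3, 49.5, 43.8 and 33.5 CPM to 99.8, 129, 114 and 88.5 CPM, the smallest p-value of the list (log2 fold change 1.37, SE 0.16, adjusted p = 0.00197). Irf7, which amplifies interferon production, overlapped between the groups, at 288 ± 68.9 and 330 ± 48.9 CPM (0.21, SE 0.17, adjusted p = 0.516). Herc6, an ISG15 ligase of the mouse, rose from 19.3 ± 3.08 to 48.9 ± 8.51 CPM (1.36, SE 0.17, adjusted p = 0.00267).

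Gbp5, which acts in inflammasome assembly, was at 0, 1.06, 1.58 and 0.405 CPM with scramble and 3.31, 4.28, 6.49 and 4.17 CPM with miR-29a (log2 fold change 2.81, SE 0.50, adjusted p = 0.0108). A count of 0 in scramble replicate 1, the shallowest library, allows up to 1.1 CPM (3 counts of its total, counting error only), still under all 4 treated values. Iigp1 rose from 0.35, 0.68, 0.961 and 0.54 CPM to 4.41, 5.54, 8.45 and 1.72 CPM (2.84, SE 0.55, adjusted p = 0.0143). Gbp3 and Gbp7, which are neighbours on chromosome 3, rose from 15.4 ± 1.12 to 41.7 ± 15.4 CPM and from 12.1 ± 2.65 to 35.6 ± 12.7 CPM (adjusted p = 0.00814 for both). The groups did not overlap for any of these GTPases. Gm14446, a predicted gene beside Ifit3 on chromosome 19, rose from 0.446 ± 0.295 to 5.45 ± 1.88 CPM (3.96, SE 0.55, adjusted p = 0.00411). The 10 largest rises held 3 of these GTPases and interferon-stimulated genes (Cmpk2, Gbp5 and Iigp1), Gm14446, 3 chemokines described further on, and 3 other genes. Of the last, Gm8923, a predicted gene, rose from 0.354 ± 0.409 to 9.61 ± 4.15 CPM, Camkk1, a kinase that activates calmodulin-dependent kinases, from 0.297 ± 0.179 to 2.23 ± 0.809 CPM, and AA467197, which contains the Mir147 hairpin, from 0.237 ± 0.18 to 1.48 ± 0.407 CPM (adjusted p = 0.00689, 0.0102 and 0.01).

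Interferon beta was at the detection limit. Its gene, Ifnb1, had 1 count in 1 of the 8 libraries and 0 in the other 7. Of 32 tested genes of interferon induction and receptor signalling, 3 were higher and 0 lower, where 2.31% and 2.82% of all genes were. In that list 1 was higher without miR-29a replicate 1 or 3 or scramble replicate 4, while with the block 5 were higher and 3 lower. Tlr3, the receptor for double-stranded RNA, rose from 8.05, 8.73, 7.21 and 6.97 CPM to 17.7, 23.7, 28.6 and 14.8 CPM (log2 fold change 1.49, SE 0.22, adjusted p = 0.00601). Ddx58 (RIG-I, the sensor of viral RNA ends) rose from 41.5 ± 8.22 to 74.5 ± 19.3 CPM (0.84, SE 0.20, adjusted p = 0.0340), and the kinase Jak2 from 77.1 ± 4.55 to 113 ± 14 CPM (0.56, SE 0.12, adjusted p = 0.0244). The list's median was 0.02, close to that of all genes.

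The letters GAAANNGAAA, the core of the interferon-stimulated response element, were searched on both strands of promoters of 300 bases, most of them before the start site (RefSeq, GRCm38.p6). They occurred in 943 of 27025 promoters (3.49%) and in 284 of 8944 promoters of tested genes (3.18%). Among called genes with a promoter in the table, 33 of 226 that rose held it (14.6%), as did 5 of 200 that fell (2.5%). Of interferon-stimulated genes it was found in 17 of 41, and of the GTPases in 9 of 10. Promoter windows of 5 genes that rose are printed with the motif in capitals, which on the opposite strand reads TTTCNNTTTC.
Ifit3, chr19:34583397-34583426: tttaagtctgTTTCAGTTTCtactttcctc
Rsad2, chr12:26456553-26456582: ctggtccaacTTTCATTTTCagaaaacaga
Stat2, chr10:128270266-128270295: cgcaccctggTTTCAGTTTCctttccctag
Gbp7, chr3:142530273-142530302: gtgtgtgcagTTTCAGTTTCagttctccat
Cxcl10, chr5:92349083-92349112: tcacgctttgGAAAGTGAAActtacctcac
A match describes these letters only and is not a measured binding site.

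**Figure D4:**
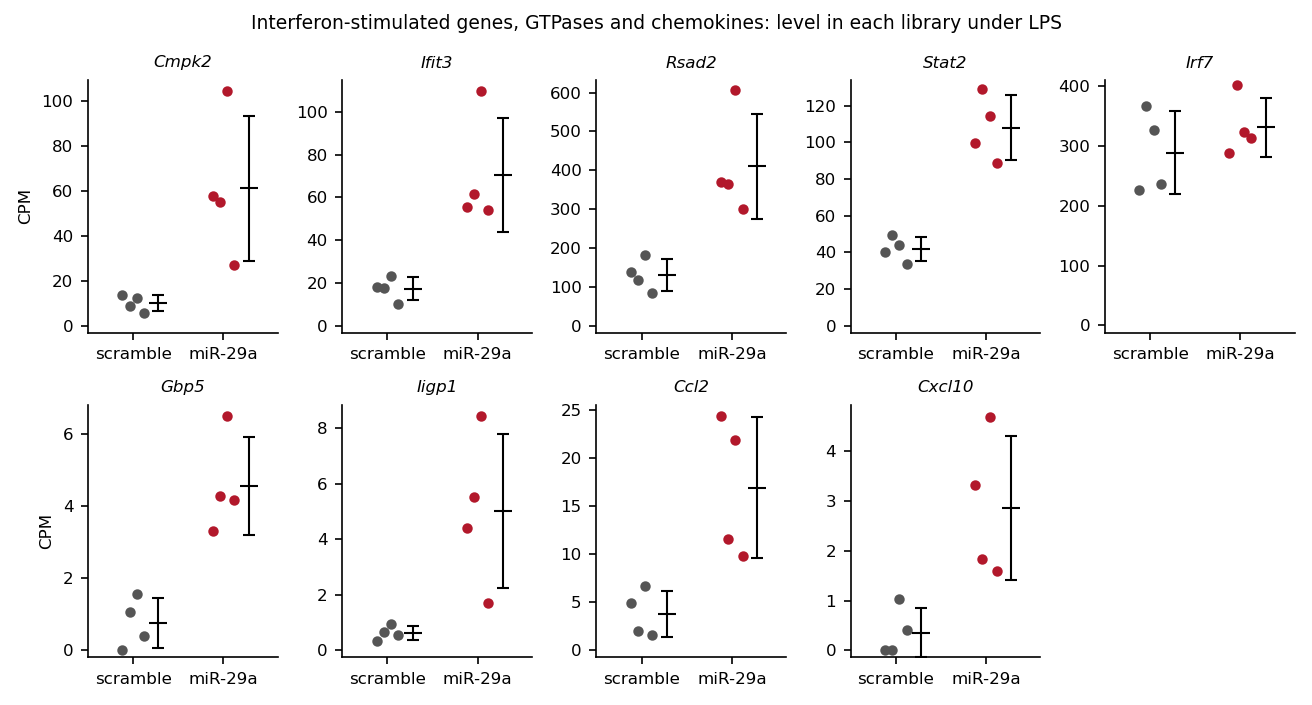
CPM on the y axis in each of the 4 scramble (grey) and 4 miR-29a (red) libraries under LPS for 9 genes of the interferon response and chemokines, 1 panel each with its own scale. Points are libraries and the bar beside them is the mean ± SD; the groups are apart in every panel but that of Irf7, where 288 ± 68.9 and 330 ± 48.9 CPM overlap.

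All 8 tested chemokines had fold changes above 0, and 4 were called higher, where 2.31% of all genes were. Ccl2, which attracts monocytes, was at 4.90, 1.98, 6.66 and 1.62 CPM with scramble and 24.4, 11.6, 22 and 9.81 CPM with miR-29a (log2 fold change 2.47, SE 0.45, adjusted p = 0.0119). Cxcl10, which attracts T cells, was at 0, 0, 1.03 and 0.405 CPM against 3.31, 1.83, 4.69 and 1.59 CPM (3.55, SE 0.79, adjusted p = 0.0272). A count of 0 allows up to 1.1 CPM in scramble replicate 1 and 0.219 CPM in replicate 2. Ccl12 and Ccl9 rose with log2 fold changes of 2.31 and 1.02 (adjusted p = 0.0313 and 0.0149). None of the 4 was called without replicate 4 of the scramble group, and 2 were without replicate 1, 2 or 3 of that group or replicate 1 or 3 of the miR-29a group.

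Inflammatory genes moved both ways. Tnf rose from 16.5 ± 4.09 to 33.1 ± 11.4 CPM (log2 fold change 1.01, SE 0.23, adjusted p = 0.0303). Nos2, the inducible nitric oxide synthase, was at 42.4, 58.2, 64.3 and 77.7 CPM with scramble and 34.7, 26.1, 41.3 and 15.9 CPM with the mimic. Its groups did not overlap, with a narrow gap between control replicate 1 and treated replicate 3 (-1.12, SE 0.26, adjusted p = 0.0309). Il1b was at 7.37 ± 4.37 and 13.1 ± 7.06 CPM, with overlap, and was called with the block alone (adjusted p = 0.213, and 0.0279 with the block). Il6 was too low to test. Over the 25 tested genes 1 was higher and 2 lower, where 2.31% and 2.82% of all genes were. When 1 library was left out 0 to 3 were higher and 1 or 2 lower, with 0 higher without miR-29a replicate 1 or 3 or scramble replicate 1, 2 or 4, and with the block 4 were higher and 4 lower.

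The acute-phase genes Hp, Lcn2 and Saa3 were the 3 called of 15 tested in their list, all higher, where 2.31% of all genes were higher. Without scramble replicate 4 the count was 1, over the other omissions it was 2 to 4, and the block called 4 higher and 2 lower. Hp, haptoglobin, rose from 35.4, 20.5, 29 and 18.8 CPM to 232, 106, 145 and 44.5 CPM, a fitted rise of 4.74-fold with a wide spread in the treated group (log2 fold change 2.25, SE 0.42, adjusted p = 0.0129). Lcn2, which binds bacterial siderophores, rose from 99.8, 87.6, 121 and 75.1 CPM to 408, 265, 270 and 171 CPM (1.5, SE 0.24, adjusted p = 0.00722). Saa3, serum amyloid A3, rose from 767 ± 174 to 1568 ± 621 CPM (0.99, SE 0.24, adjusted p = 0.0383). In all 3 the control of replicate 4 was the lowest, as was the treated library of that number. Of 27 genes of the NF-kappaB family and its inhibitors 1 was called (3.70%, against 5.12% of all genes), the kinase Chuk, which rose from 51.1 ± 5.93 to 72.7 ± 7.18 CPM (0.52, SE 0.13, adjusted p = 0.0391). In that list 1 gene was higher without miR-29a replicate 4 or 2 and 0 without any other single library, 2 were lower without miR-29a replicate 2, and the block called 3 higher and 2 lower.

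Several lysosomal enzymes were lower. Of 47 lysosomal hydrolases and cofactors, all tested, 12 were lower and 1 higher, the median was -0.29, and 38 fold changes were below 0. Of all genes tested, 2.82% were lower and 2.31% higher, and 48.5% of the fold changes were below 0. Beside Ctsk and Ctsf, which hold a site, Hyal1, the lysosomal hyaluronidase, measured 139, 126, 117 and 159 CPM with scramble and 36.4, 41.2, 33.7 and 51.4 CPM with miR-29a (log2 fold change -1.74, SE 0.15, adjusted p = 0.000341). It has no site, and it shares exons with Hyal3 and Naa80 on the same strand, so part of its counts may come from these genes. Ctsh, cathepsin H, fell from 240 ± 15.8 to 136 ± 11.8 CPM (-0.81, SE 0.11, adjusted p = 0.00411). The count of lower genes was 7 without miR-29a replicate 3, 8 to 11 over the other omissions and 17 with the block, which called 2 higher.

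The study's own list of 28 lysosomal and phagocytosis genes holds targets of microRNAs from a target database. By the paper's methods such targets were linked to microRNAs in sorted mouse microglia, not in these libraries. Of these genes 5 were lower and 0 higher, where 2.82% and 2.31% of all genes were, and the list's median was -0.25. In that list 2 were lower without miR-29a replicate 3 and 3 without miR-29a replicate 1 or scramble replicate 2 or 4, and 10 were lower and 1 higher with the block. Gm2a, the activator that presents gangliosides for breakdown, fell from 212, 199, 262 and 251 CPM to 126, 117, 133 and 150 CPM (log2 fold change -0.81, SE 0.13, adjusted p = 0.00814). Hexa, the hexosaminidase subunit that works with it, fell from 623 ± 110 to 383 ± 71.5 CPM (-0.70, SE 0.16, adjusted p = 0.0293) and holds 1 site. Man2b1 and Fuca1, which remove mannose and fucose from glycoproteins, fell with log2 fold changes of -0.64 and -0.57 (adjusted p = 0.0104 and 0.0182), and Gnptab, which makes the mannose 6-phosphate tag of lysosomal enzymes, with -0.49 (adjusted p = 0.0382). Lamp1, the main lysosomal membrane protein, was at 1165 ± 152 and 1083 ± 137 CPM (-0.11, SE 0.14, adjusted p = 0.708).

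Of 30 lysosomal membrane and sorting proteins 3 were lower, Gnptab among them, and 1 higher, where 2.82% and 2.31% of all genes were. None was lower without scramble replicate 1, 2 or 4 or miR-29a replicate 3, and 1 was without scramble replicate 3 or miR-29a replicate 1 or 4, while the block called 6 lower and 3 higher. Laptm5, a lysosomal protein of blood cells, fell from 732 ± 61.7 to 505 ± 65.6 CPM and Igf2r, the receptor for mannose 6-phosphate, from 101 ± 7.45 to 71.1 ± 9.68 CPM (adjusted p = 0.0381 and 0.0382). Ostm1, a partner of a lysosomal chloride channel, rose from 39.8 ± 2.19 to 59.4 ± 2.02 CPM (log2 fold change 0.59, SE 0.11, adjusted p = 0.0118). Of 18 subunits of the proton pump that acidifies lysosomes, Atp6v0a1 alone was called (5.56% of the list, against 5.12% of all genes), from 180 ± 14.2 to 129 ± 4.25 CPM (-0.48, SE 0.11, adjusted p = 0.0277). No subunit was called without scramble replicate 2, 3 or 4 or miR-29a replicate 1 or 3, and with the block 2 were lower and 1 higher.

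Some phagocytic receptors were lower too, with 8 of 26 called lower, 0 higher and a median of -0.43, where 2.82% of all genes were lower and 2.31% higher. Itgax, the integrin CD11c that marks activated microglia, measured 43.8, 72.1, 40.2 and 62.7 CPM with scramble and 19.2, 19.4, 15.2 and 18.4 CPM with miR-29a, without overlap and with little spread in the treated group (log2 fold change -1.61, SE 0.20, adjusted p = 0.00267). Marco, a scavenger receptor for bacteria, fell from 59.2, 27, 45.9 and 34.8 CPM to 18.8, 8.56, 14.2 and 15.2 CPM (-1.53, SE 0.27, adjusted p = 0.0104). In both genes all treated libraries were below all controls. Fcgr3, an activating receptor for antibody, fell from 336 ± 9.70 to 179 ± 27.8 CPM (-0.91, SE 0.13, adjusted p = 0.00442). Fcgr2b, its inhibitory counterpart on the same chromosome, fell from 154 ± 7.29 to 90.3 ± 8.51 CPM (-0.77, SE 0.11, adjusted p = 0.00537). Trem2, the lipid receptor genetically linked to Alzheimer's disease, was at 150 ± 14.1 and 122 ± 21.3 CPM and was not called (-0.31, SE 0.14, adjusted p = 0.229). The count of lower receptors was 4 without scramble replicate 4, 5 without miR-29a replicate 3, 6 or 7 over the other omissions and 14 with the block, which called 1 higher.

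Csf1r, the receptor that microglia need to survive, fell from 558, 626, 548 and 546 CPM to 386, 412, 323 and 291 CPM (log2 fold change -0.70, SE 0.13, adjusted p = 0.0134), without overlap. Of the 17 tested microglia and macrophage markers 3 were lower and 0 higher, where 2.82% and 2.31% of all genes were, and the median of the markers was -0.35. The count was 4 without miR-29a replicate 4, 2 without miR-29a replicate 2 and 1 without any other single library, and with the block 9 were lower and 1 higher. The part of this lower summed marker level in the falls of lysosomal and phagocytic genes was not tested, and the lists share genes.

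**Figure D5:**
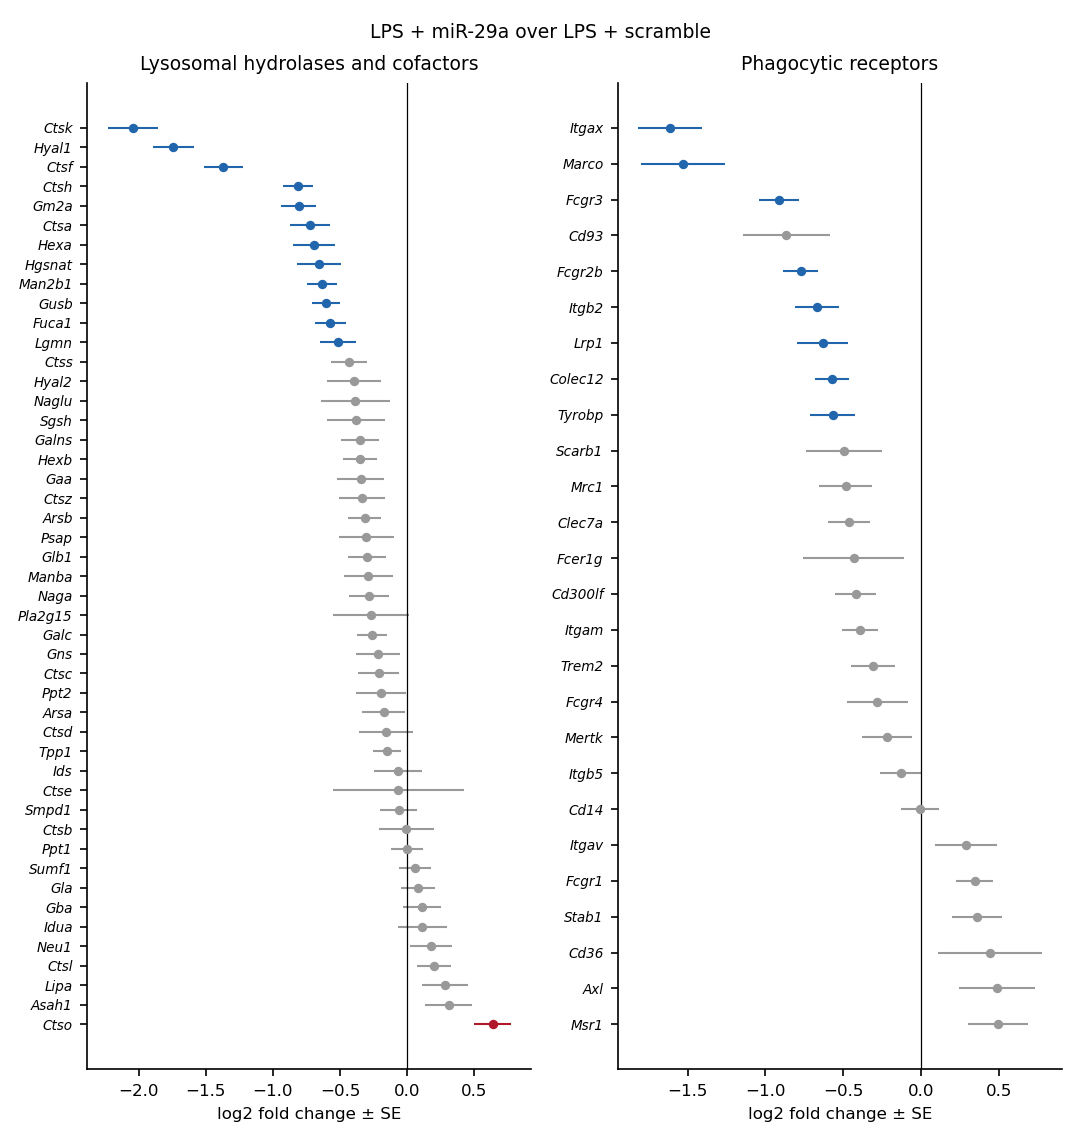
Log2 fold change ± SE (x axis, miR-29a over scramble under LPS, n = 4 libraries each) of every tested lysosomal hydrolase or cofactor (left) and phagocytic receptor (right), in order of the change. Blue points were called lower, the red point higher and grey points were not called; 38 of 47 and 20 of 26 points lie below 0.

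Under vehicle, with 4 scramble and 4 miR-29a libraries that share no sample with the LPS groups, 2 of 11710 genes were called (0.0171%, both lower), with 1223 at an unadjusted p under 0.05. edgeR called 3, and with the block the count was 80 (0.683%). Ctsk was 1 of the 2, the other being a small structural RNA. It was at 47.3, 45.2, 46.7 and 45.4 CPM in vehicle scramble libraries and at 22.3, 17.9, 12.2 and 11.9 CPM with miR-29a (log2 fold change -1.64, SE 0.21, adjusted p = 0.0204), so its groups were apart with and without LPS. Its adjusted p under vehicle reached 0.199 when single libraries were left out. Dnmt3a had a log2 fold change of -0.83 under vehicle (SE 0.18, adjusted p = 0.149, and 0.0318 with the block), Col7a1 -1.48 (SE 0.31, adjusted p = 0.136), E330009J07Rik -1.33 (SE 0.22, adjusted p = 0.0904, and 0.00766 with the block) and Atp9a -1.60 (SE 0.29, adjusted p = 0.0951, and 0.0284 with the block). Of 42 interferon-stimulated genes tested under vehicle 0 were called, and their median was 0.51. The medians under vehicle were -0.18 for the 47 lysosomal hydrolases and cofactors and -0.14 for 24 phagocytic receptors, against 0.01 for all genes. The vehicle libraries held 3899280 to 9668666 estimated counts with scramble and 3470500 to 9561570 with miR-29a. The LPS groups held 2726683 to 20555235. Small structural RNAs took 6.88% to 12.5% of the counts with vehicle scramble and 4.56% to 19.5% with vehicle miR-29a. Under LPS they took 2.96% to 5.82%. The part of these differences in the number of called genes was not tested.

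Whether the effect of the mimic differed with LPS was tested by the interaction over 16 libraries. It called 3 of 12411 genes (0.0242%, 2 coding genes and 1 small structural RNA), with 828 at an unadjusted p under 0.05, and edgeR called 3 as well. With the block the count was 18 (0.145%). Myom3, a protein of the muscle sarcomere, was at 56.7, 54.2, 57.9 and 56.6 CPM with scramble and 27.1, 27, 22.8 and 21.9 CPM with miR-29a under LPS, while under vehicle it was at 117 ± 14.4 and 135 ± 25 CPM (difference of the log2 fold changes -1.40, SE 0.21, adjusted p = 0.0123). Appl2, an adaptor of early endosomes, was at 136, 139, 119 and 137 CPM and at 87.2, 68.5, 66.6 and 66.8 CPM under LPS, and at 140 ± 11.2 and 165 ± 13.3 CPM under vehicle (-1.13, SE 0.17, adjusted p = 0.0123). Neither gene holds a site in its 3′ untranslated region. Without replicate 4 of the LPS scramble group, or of the vehicle miR-29a group, 1 gene was called, and both Myom3 and Appl2 reached at most adjusted p = 0.0554 over all single omissions.

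The other mimics were compared with miR-29a directly, library group against library group under LPS, since all 3 share the scramble libraries. Against miR-7a, 492 of 12930 genes were called (3.81%, with 179 or 1.38% higher and 313 or 2.42% lower after miR-29a). With the block the count was 1242, and the counts of lists and the values of genes against miR-7a are given without it. Of 54 interferon-stimulated genes 0 were higher and 2 lower, with a median of 0.06. Cmpk2, Ifit3, Rsad2 and Gbp5 had log2 fold changes of 0.92, 0.39, 0.12 and 0.53 (SE 0.42, 0.34, 0.28 and 0.35), none of them past the threshold. Against the scramble, miR-7a had 386 of 13088 genes called (2.95%, with 1.64% higher and 1.31% lower), among them 16 of the 54 interferon-stimulated genes, all 16 higher. The genes with lower levels after miR-29a than after miR-7a included Dnmt3a (-1.58, SE 0.14, adjusted p = 0.000192), Itgax (-2.06, SE 0.18, adjusted p = 0.000192), Ctsk (-1.29, SE 0.22, adjusted p = 0.00818) and Atp9a (-2.41, SE 0.24, adjusted p = 0.000455). Of the lysosomal hydrolases and cofactors 9 of 47 were lower and 1 higher (median -0.42), and of the phagocytic receptors 9 of 26 were lower and 2 higher (median -0.50).

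Of 17 acute-phase and complement genes tested between these mimics, 4 were higher and 2 lower with miR-29a, and the list's median was -0.20. Hp, Lcn2 and Saa3 were higher with miR-29a than with miR-7a, with log2 fold changes of 2.94, 1.83 and 2.17 (SE 0.44, 0.22 and 0.23, adjusted p = 0.00392, 0.000978 and 0.000523). The other 3 called, named after their values were seen, were Cp, ceruloplasmin, which was higher (adjusted p = 0.00105), and the complement genes C3 and Cfp, which were lower by log2 fold changes of -1.34 and -1.65 (adjusted p = 0.000523 and 0.00338). Against the scramble, miR-7a had Saa3 lower (-1.18, adjusted p = 0.00708). Marco missed the threshold between the mimics (0.80, SE 0.28, adjusted p = 0.151), and miR-7a had it at -2.34 against the scramble (adjusted p = 0.00216). Of the named genes lower after miR-29a than after miR-7a, the largest difference was in Myo18b, an unconventional myosin, at 0.898 ± 0.254 CPM with miR-29a and 21.5 ± 4.44 CPM with miR-7a, and it was 1.82 ± 0.612 CPM in the shared scramble libraries. Nbl1, an inhibitor of bone morphogenetic proteins, and Gng4, a G protein subunit, were lower after miR-29a by log2 fold changes of -4.35 and -3.48 (adjusted p = 0.00152 and 0.000455). Nbl1 was at 0.118 CPM with scramble, 0.133 CPM with miR-29a and 2.77 CPM with miR-7a, and Gng4 at 0.387, 0.378 and 4.18 CPM. The predicted or little-known genes Gm8923, Gm10045 and Zfp811 were higher after miR-29a (5.88, 4.88 and 3.81, adjusted p = 0.00232, 0.000455 and 0.00844). With scramble, miR-29a and miR-7a, Gm8923 was at 0.354, 9.61 and 0.345 CPM, Gm10045 at 0.697, 1.77 and 0.0109 CPM, and Zfp811 at 2.49, 3.15 and 0.232 CPM.

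Against miR-146a, 1536 of 12579 genes were called (12.2%, with 697 or 5.54% higher and 839 or 6.67% lower after miR-29a), and with the block 3259 (25.9%). Here the interferon response differed: 36 of 55 interferon-stimulated genes and 12 of 13 of the GTPases were higher and 0 lower in either list, with medians of 1.01 and 1.30. Ifit3 was 3.24 and Rsad2 2.20 higher on the log2 scale (SE 0.34 and 0.21, adjusted p = 0.000237 and 0.000181). Of lysosomal hydrolases and cofactors 21 of 47 were lower and 0 higher (median -0.46), and 14 of 26 phagocytic receptors were lower and 2 higher (median -0.64). With the block 43 of the interferon-stimulated genes and 12 of the GTPases were higher and 0 lower, 30 of the hydrolases and cofactors were lower and 0 higher, and 17 of the receptors were lower and 2 higher. F13a1, the coagulation factor XIII subunit made by macrophages, was at 14, 4.97, 9.37 and 3.92 CPM with miR-29a and 144, 105, 162 and 80.4 CPM with miR-146a (-4.12, SE 0.34, adjusted p = 5.91e-05). In the shared scramble libraries F13a1 was at 29.1 ± 7.58 CPM, between the mimics, and miR-146a itself had it higher than the scramble (2.17, SE 0.22, adjusted p = 0.00218). The medians of miR-146a against the scramble were -0.30 for the interferon-stimulated genes, -0.33 for the GTPases, 0.22 for the lysosomal hydrolases and cofactors and 0.10 for the phagocytic receptors, against -0.01 for all genes. Among the largest differences the other way were Gm14446 and Iigp1, with log2 fold changes of 4.11 and 3.92 (adjusted p = 0.00222 and 0.00905).

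The effect of LPS itself in scramble cells gives the scale. It called 2230 of 12340 genes (18.1%, with 9.31% higher and 8.76% lower), with 48 of 53 interferon-stimulated genes higher and 0 lower and a median of 1.81 in that list. Lcn2 rose by 9.96 on the log2 scale and Saa3 by 8.57 with LPS, where their log2 fold changes with miR-29a under LPS were 1.5 and 0.99. F13a1 had a log2 fold change of -4.84 with LPS and of -1.95 with miR-29a under LPS. These comparisons share the LPS scramble libraries, so their values are given side by side only.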

How the data were processed

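RNA was extracted with TRIzol, depleted of ribosomal RNA and made into CORALL total RNA libraries, and the authors quantified genes with the nf-core rnaseq workflow on GRCm38. The annotation release was not given in the sources used here. The table deposited by the authors holds 1 value for 45706 genes in 32 libraries, as estimated counts whose decimal marks were lost. Of the 109458 values of 20000 or more, 0.0155% end in 0, where whole counts would give 10%. For each value the number of lost decimals (0 to 3) was inferred by a statistical model that weighs the trailing digits of the value against what the other libraries show for that gene, so the libraries are not wholly independent. Of 590874 values above 0, 28.5% were restored, and 1600 genes with a value whose reading had a posterior under 0.9 in the 8 libraries were left out. No column was unused (0), and no pair of libraries was identical (0).

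Genes were filtered with filterByExpr (minimum 10 counts), normalised by TMM and tested with limma-voom (limma 3.58.1, edgeR 4.0.16, R 4.3.3) on the groups compared only. The paper's methods name filterByExpr, TMM and a limma/edgeR model per pair of conditions. Its log transformation was not repeated, and voom stands in its place. A gene was called at a Benjamini-Hochberg adjusted p below 0.05 with a log2 fold change beyond 0.3 either way. The pipeline was tested on simulated data for the comparison under LPS. Of 7770 genes tested in the simulation, 100% of the 2-fold and 58% of the 1.5-fold changes were recovered, with 4 false calls among 161. The changed genes were drawn only from well-expressed ones, with a fixed spread and no shared effect of replicate number. These rates therefore do not carry over to genes with few counts or to the spread of the real libraries. DESeq2 1.42.0 and edgeR's quasi-likelihood test were alternatives. Same-numbered libraries of the main comparison deviated together (correlations of 0.252 to 0.482). The mean of -0.107 for different numbers is largely set by centring each group on its mean, so it is no separate baseline. Same-numbered libraries also deviated together under vehicle and against miR-146a (lowest 0.157 and 0.122). Against miR-7a the lowest was 0.0630, while the mean was 0.297, near the 0.290 against miR-146a. The numbers therefore pair the samples of these comparisons. Fits with the replicate number as a block are given beside the calls and counts they change, except against miR-7a. There the block is given for the total alone. If the replicates are not separate cultures, the p-values measure technical spread.

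The named genes are the 10 largest rises and falls that moved the same way in all 4 pairs, the 10 largest falls with a seed site, up to 4 called members with the smallest p of each list, the genes of the interaction, up to 3 per direction in each comparison between mimics, and a set of reported targets and inflammatory or lysosomal genes. Genes without a symbol and small structural RNAs were counted but not named, and some items are not reported here. The comparison, and with it the members, and the lists were chosen with earlier results of these data known, while the libraries of each group follow from the labels. Alternatives tried were other normalisations, filters, tests and restoration limits, the replicate block and leaving out each library.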

Additional observations from a re-analysis of the deposited data

Results flagged for a closer look

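In 12 of 184 groups of 4 libraries, 1 library lay farther from the rest than Dixon's criterion allows, and chance alone gives about 1 group in 20. In Appl2, scramble replicate 3 was at 119 CPM against 136 to 139 CPM in the others, and miR-29a replicate 1 at 87.2 CPM against 66.6 to 68.5 CPM. In Ctsk, scramble replicate 3 was at 27.2 CPM against 38.2 to 39.9 CPM. In Tet3, scramble replicate 1 was at 88.9 CPM against 68.7 to 72.1 CPM. In Csf1r, scramble replicate 2 was at 626 CPM against 546 to 558 CPM. In Ifit3, miR-29a replicate 3 was at 110 CPM against 54.3 to 61.6 CPM. In Fcgr2b, miR-29a replicate 3 was at 103 CPM against 84.4 to 87 CPM, and in Mturn, miR-29a replicate 4 was at 1.84 CPM against 3.33 to 3.63 CPM. In each of these 7 genes the outlying library did not close the gap between the groups.

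The other 4 were low or partly at 0. Gm15725 was at 6.13 CPM in miR-29a replicate 4 and at most 0.28 CPM in the other 3, Gm6505 at 0.707 CPM in miR-29a replicate 3 and 0 in the others, and Gm9149 at 1.36 CPM in miR-29a replicate 2 and 0 in the others. Rsc1a1 was at 10.6 CPM in scramble replicate 2 and 0 in the other 3. It shares exons with Ddi2, and its log2 fold change of 5.17 (adjusted p = 0.0267) was lost with the replicate block (adjusted p = 0.152).

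The effect of miR-29a differed between LPS and vehicle for Myom3 and Appl2, by -1.40 and -1.13 on the log2 scale (adjusted p = 0.0123 for both, limma-voom interaction). Under LPS their log2 fold changes were -1.19 and -0.89, and under vehicle 0.18 and 0.23. With the replicate block their adjusted p were 0.00263 and 0.00113.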

How the results depend on the processing

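The count of 684 called genes was 1411 with the replicate block, 1075 with DESeq2 and 18 with the values as deposited, and 204 to 781 when 1 library was left out. Under the other 9 settings it was 559 to 913. It moved by more than 1.5 times without scramble replicate 1 (399), 2 (455), 3 (332) or 4 (204) and without miR-29a replicate 1 (363) or 3 (285). Under vehicle the count was 80 with the replicate block and 1 to 6 over the omissions. The interaction gave 18 with the block, 6 without the filter on low counts and 1 to 4 over the omissions. Against miR-7a it was 1242 with the block and 216 to 709 over the omissions, and against miR-146a 3259 with the block and 760 to 1608. The median of genes with a seed site was -0.076 without the filter, where that of all genes was -0.07 and that of genes with no site -0.033. Over the omissions the median of genes with a site was -0.06 to -0.04. The causes were not tested.

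Of the 95 named genes, 80 were called. The replicate block kept 77 and lost Col15a1, Gm20431 and Rsc1a1, and it added Il1b, Mcl1, Tdg and Tet2. edgeR kept 75, DESeq2 75, limma-trend 71, no filter 76, and the omissions lost 7 to 33 of them, most without scramble replicate 4. Gm2274 (log2 fold change -0.17, not called) turned to 0.15 with the block, 0.30 with DESeq2, 1.08 with limma-trend, 0.40 with quality weights and 5.71 as deposited, and to between -1.73 and 1.46 over the omissions. The values as deposited also turned the sign of E330009J07Rik (0.58), Col15a1 (1.07), Hyal1 (0.015), Fuca1 (2.28), Msmo1 (-0.80), Idi1 (-2.38), Tet2 (0.56), Tdg (0.67), Cdc42 (-3.58), Pik3r1 (-0.23), Ifnar1 (3.46) and Zfp811 (-3.72). No called gene turned under any other setting. Depth limits genes near 1 CPM most in scramble replicate 1, the shallowest library, where 3 counts are 1.1 CPM.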

Other observations

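Few genes of the cell cycle and of sterol metabolism were called. Of 28 mitosis genes 27 had log2 fold changes below 0, where 48.5% of all genes did. The changes ran from -0.51 (Plk1, a mitotic kinase) to 0.02, with a median of -0.26, and 0 were called. Of 30 DNA replication genes 2 were higher and 0 lower (6.67% called, against 5.12% of all genes, median 0.09), among them Ccne1. Ccne1, the cyclin of entry into S phase, rose from 15.4 ± 2.59 to 26.6 ± 4.17 CPM (adjusted p = 0.0222). No replication gene was called without scramble replicate 1, 3 or 4, 1 was without miR-29a replicate 1, 2 or 3, and 3 were with the block. Of 27 genes of cholesterol synthesis and uptake 3 were higher and 0 lower (median 0.15), where 2.31% and 2.82% of all genes were. The 3 were Idi1, Msmo1 and Stard4, with log2 fold changes of 0.80, 0.66 and 0.51 (adjusted p = 0.0454, 0.0323 and 0.0431). None of these 3 was called without any 1 of the scramble libraries or miR-29a replicate 1 or 3, and with the block 4 genes of the list were higher and 3 lower.

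Pseudogenes were called lower more often than higher. Of 772 tested, 85 were lower and 6 higher, with a median log2 fold change of -0.40. By mean level, 13 of 302 were lower at or below 1 log2 CPM, 57 of 309 between 1 and 3, and 15 of 161 above 3, while of protein-coding genes in the same ranges 10 of 630, 25 of 1219 and 244 of 9294 were lower. The share of all counts in pseudogenes was 1.09% to 1.39% with scramble and 1.00% to 1.35% with miR-29a, and it was lower with miR-29a in each same-numbered pair. The count of lower pseudogenes was 34 to 86 when 1 library was left out, lowest without scramble replicate 4, and 90 with the replicate block. Gm5537 was at 71.7, 19.1, 22.2 and 38 CPM with scramble and 7.87, 2.21, 3.08 and 5.42 CPM with miR-29a. The part of reads shared with parent genes in these values was not tested.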
